A study of Saccharomyces cerevisiae with 8 samples.

Results

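The yeast ATG genes encode the core machinery of autophagy, and their ACA sites were examined in a transcriptome-wide map of MazF cleavage. Members were all lines of the deposited table whose locus carries a standard gene name of ATG followed by a number, which gave 565 sites in 37 genes, out of 76330 distinct sites in the table. Genes of the pathway with another standard name, such as VPS30 (also called ATG6) and SNX4 (also called ATG24), fell outside this rule. MazF, an RNA-cutting toxin from bacteria, cleaves ahead of the sequence ACA unless its first A is methylated to N6-methyladenosine (m6A). Each site has a normalized cleavage efficiency, a fraction between 0 and 1, in 8 libraries. These were 2 biological replicates each of IME4-KO IP, WT IP, IME4-KO input and WT input. All were diploid SK1 cells (MAT a/alpha), grown in YPD at 30 °C and then induced to enter meiosis; no source used here gives the time after induction. Both genotypes were homozygous for lys2, for ho::LYS2 and for ndt80::LEU2, a disruption of the transcription factor gene that drives exit from pachytene. IME4-KO cells also carried ime4::HIS3 on both copies of IME4, the gene of the enzyme that places m6A on yeast mRNA, and WT cells carried intact IME4. Input is polyadenylated RNA before, and IP the RNA after, pulldown with an antibody against m6A. The comparison of genotypes asks at which sites cutting differed where Ime4 was missing. Changes are given as IME4-KO minus WT, so that a positive value means more cutting in IME4-KO. That a higher value means more cutting was read from the name of the quantity, since no source used here states it.

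In autophagy a double membrane closes around cytoplasm and delivers it to the vacuole for breakdown. The Atg1 kinase complex starts the process when nutrients are scarce, vesicles with Atg9 and a phosphatidylinositol 3-kinase complex build the membrane, and a pair of ubiquitin-like conjugation systems attach Atg8 to it. Receptors bind selected cargo to Atg8. Budding yeast enters meiosis under starvation, and autophagy is needed for efficient meiotic entry and sporulation.

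The table holds no read numbers, so the depth at a site is unknown and values carry no counting error. Of all 76330 sites, the IP libraries measured 27708 to 43570 and the input libraries 45364 to 62498. The deletion was visible at IME4 itself: of its 27 listed sites, IME4-KO IP measured 0 in each library and IME4-KO input 2 and 0, against 16 and 24 in WT IP and 21 and 23 in WT input. Sites measured in all 8 libraries, 17360 in the whole table and 159 in 27 ATG genes, were tested together with limma, with Benjamini-Hochberg adjustment over all 17360 sites and a threshold of 0.05 on the adjusted p. For 2 libraries against 2, the smallest two-sided p of an exact permutation test is 0.333. The highest value a library reached was 0.997 in WT IP replicate 1, 0.992 and 0.994 in the WT inputs and 1.0 in the others. Spread at that ceiling does not reflect replicate error.

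ATG sites were measured somewhat more often than the table as a whole in each of the 8 libraries, and unevenly between genes. IME4-KO IP measured 218 and 302 of the 565 ATG sites, WT IP 264 and 349, IME4-KO input 462 and 464, and WT input 391 and 507. As shares these run from 38.6% (IME4-KO IP replicate 1) to 89.7% (WT input replicate 2), and over the whole table from 36.3% to 81.9% in the same libraries. The gap was widest in WT input replicate 1, at 69.2% of ATG sites, against 59.4% of all sites. ATG8, which encodes the ubiquitin-like protein of the autophagosome membrane, had all 6 listed sites measured in every library. ATG39, a receptor gene for autophagy of the nucleus and endoplasmic reticulum, had 13 of 15 sites measured in all 8. Several genes had more of their sites measured in some groups than in others. ATG36, which encodes the peroxisome receptor, had 11 listed sites, of which IME4-KO IP measured 0 in each library and WT IP 5 and 7. Its inputs measured 8 and 8 sites in IME4-KO, against 3 and 8 in WT. ATG2, which encodes a lipid transfer protein, had 29 listed sites, of which IME4-KO input measured 7 in each library and WT input 10 and 24. ATG29, a subunit gene of the Atg1 complex, went the other way in input, with 8 and 7 of 9 sites in IME4-KO and 2 and 3 in WT. For ATG15, the gene of the lipase that opens autophagic bodies, IME4-KO input measured 14 and 19 of 22 sites and WT input 4 and 14. How often a gene was measured says nothing certain of its RNA level, and the relation between them was not tested.

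**Figure D1:**
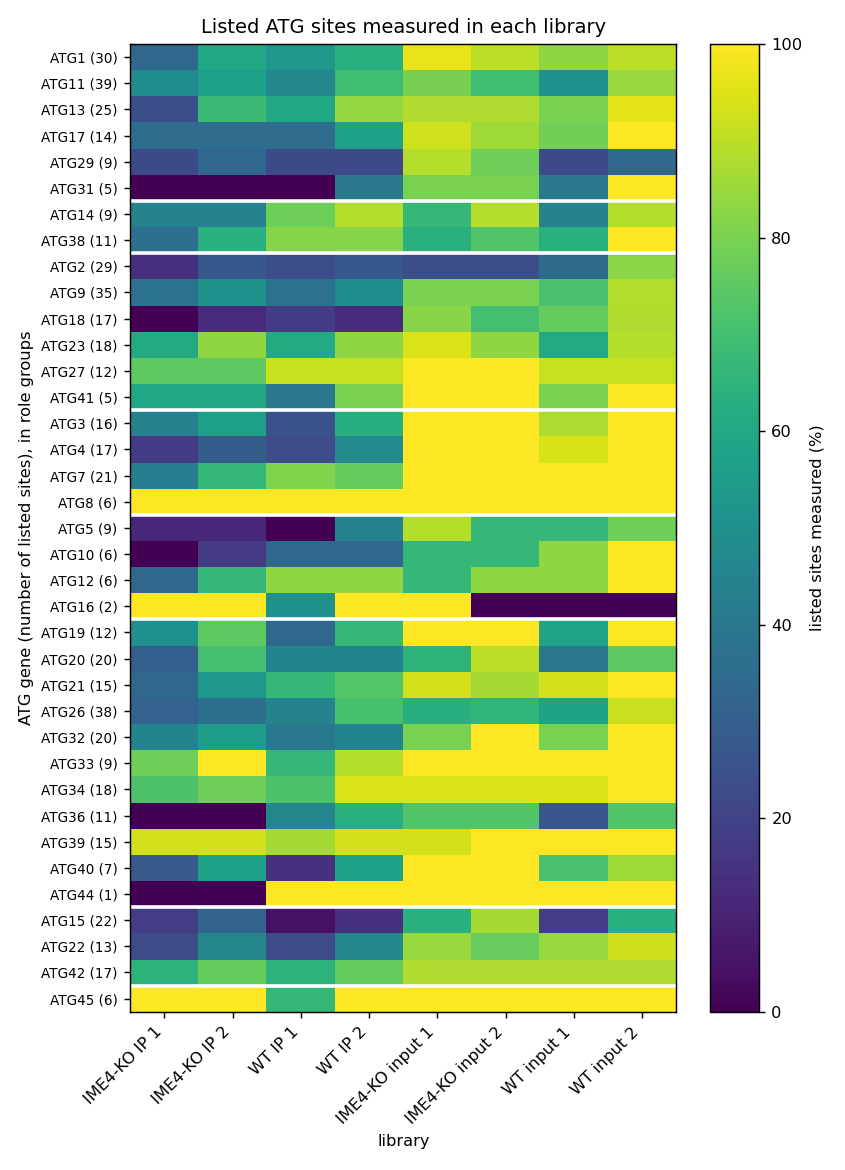
Share of each ATG gene's listed sites (colour, in percent) that each of the 8 libraries measured, with genes down the page in groups by role and the number of listed sites in brackets. ATG8 is measured completely in all 8 libraries, and ATG36 has no measured site in either IME4-KO IP library.

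In IP, 58 of the 159 tested ATG sites differed between genotypes. That is 36.5%, against 41.3% of all tested sites. Of these 27 (17.0%, against 17.0% of all tested sites) were higher in IME4-KO and 31 (19.5%, against 24.3%) were lower, while 101 did not pass. The shares lie near those of the whole table, so the count itself sets the ATG genes apart in neither direction. Over the 159 sites the median change was 0.001 and the median absolute change 0.15, against -0.0089 and 0.132 over all tested sites. At 121 sites (76.1%) both IME4-KO IP values lay on 1 side of both WT IP values, against 72.5% in the whole table. Changes of at least 0.3 were called at 18 sites as higher (11.3%, against 9.6%) and at 16 as lower (10.1%, against 11.9%). Higher sites lay in 14 genes and lower sites in 19; 11 genes had both, and 5 of the 27 had neither. Leaving out any 1 library gave 19 to 28 higher and 22 to 34 lower sites, and 31 of the 58 calls held under each of these 8 omissions.

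In input the counts were similar. There 52 ATG sites differed (32.7%, against 32.2% of all tested sites), 28 of them higher in IME4-KO (17.6%, against 15.6%) and 24 lower (15.1%, against 16.6%), in 18 genes each. Groups were separate at 127 sites (79.9%, against 75.5%), and changes of at least 0.3 were called at 21 sites as higher (13.2%, against 7.75%) and at 10 as lower (6.29%, against 7.87%). These counts fell to 17 higher and 10 lower without IME4-KO input replicate 1, and to 14 and 10 without IME4-KO input replicate 2. The whole table lost calls likewise, with 1497 higher and 1462 lower, and 1441 and 1427, under these omissions, where all 8 libraries gave 2702 and 2886. Of the 27 sites higher in IP, 14 were called higher in input (51.9%, against 53.3% of such sites in the whole table) and 25 had a positive change there (92.6%, against 89.4%). Of the 31 lower sites, 16 were called lower in input (51.6%, against 53.0%) and 28 had a negative change (90.3%, against 92.4%). ATG sites thus moved the same way in both kinds of RNA about as often as the rest of the table. A single site, ATG29 +776, was called in opposite directions. The sources do not say whether IP and input were made from the same cultures, and the fit gives both comparisons 1 variance per site, so these counts are a description.

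**Figure D2:**
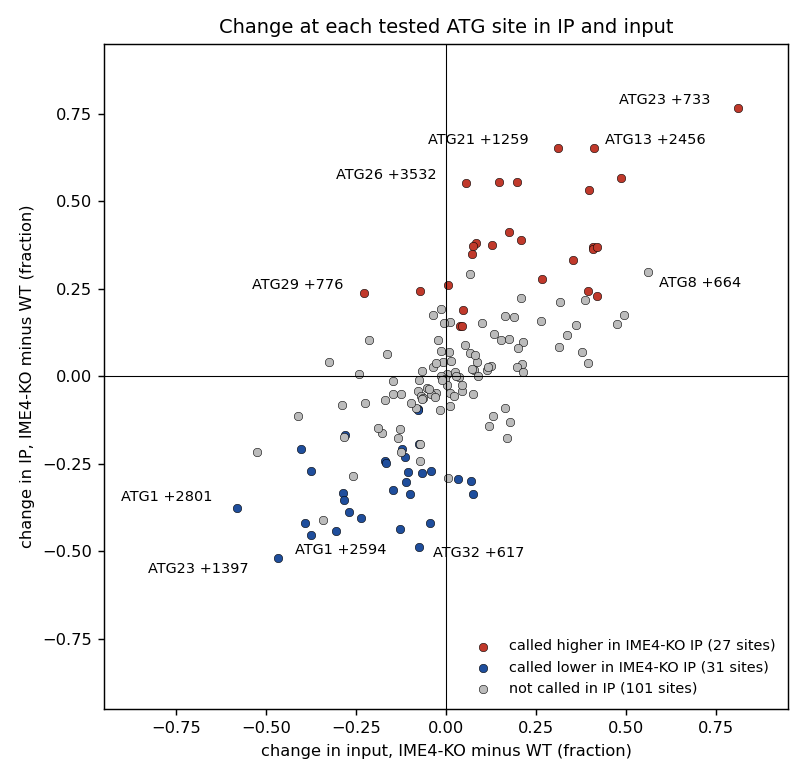
Each point is 1 of the 159 tested ATG sites, with its change in input (x axis) and in IP (y axis), IME4-KO minus WT, both as fractions. Red points were called higher in IME4-KO IP (27), blue points lower (31) and grey points not called (101); ATG23 +733 lies farthest out in the upper right.

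The site with the largest change lay in ATG23, which encodes a peripheral membrane protein that carries Atg9 vesicles forward. ATG23 +733 (733 nt from the start of the gene model, chromosome 12, position 998243, minus strand) had an efficiency of 0.894 and 0.874 in IME4-KO IP, against 0.137 and 0.094 in WT IP. Input gave nearly the same picture, with 0.952 and 0.984 in IME4-KO and 0.177 and 0.14 in WT. The site was thus cut almost fully in all 4 IME4-KO libraries and rarely in all 4 WT libraries, with no overlap. Its change was 0.768 in IP (SE 0.0288, adjusted p = 6.25e-05) and 0.81 in input (SE 0.0288, adjusted p = 0.000154), the largest of any ATG site in both. Both calls held under every alternative tried. The neighbouring tested sites of ATG23, at +522 and +873, moved by 0.155 and -0.0474 in IP, and neither passed (adjusted p = 0.254 and 0.427).

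Farther along the same transcript, ATG23 +1397 had 0.431 and 0.288 in IME4-KO IP, against 0.82 and 0.94 in WT IP, a change of -0.52 (SE 0.0816, adjusted p = 0.00458) and the deepest fall of any ATG site in IP. Input had 0.389 and 0.268 in IME4-KO, against 0.723 and 0.871 in WT, a change of -0.468 (adjusted p = 0.00893) that was no longer called without IME4-KO input replicate 2 (0.06). Here WT was the more cut genotype in both kinds of RNA. ATG23 +1555, the next listed site, turned the direction again in IP. It had 0.884 and 0.865 in IME4-KO IP, against 0.456 and 0.548 in WT IP (change 0.372, SE 0.0418, adjusted p = 0.0014), while in input 0.906 and 0.904 in IME4-KO stood close to 0.871 and 0.791 in WT (adjusted p = 0.235). Of the 9 tested ATG23 sites, these 3 passed in IP and 6 did not.

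Other genes of the Atg9 and membrane supply group followed with fewer measured sites. Over its 6 genes, 27 sites in 5 genes were tested, with 5 higher, 4 lower and 18 that did not pass in IP. Of all tested sites 17.0% were higher and 24.3% lower in IP. ATG9, the gene of the transmembrane lipid scramblase, had 6 tested sites of 35, of which 2 were called in IP, both higher; that at +2863 ended without either IME4-KO IP library (0.125 and 0.107), WT IP replicate 1 (0.101) or either IME4-KO input library (0.075 each). At ATG9 +3062 (chromosome 4, position 192181, plus strand) efficiency was 0.863 and 0.758 in IME4-KO IP, against 0.542 and 0.339 in WT IP. Input had 0.784 and 0.813 in IME4-KO and 0.336 and 0.424 in WT, so the genotypes stood apart in both. The changes were 0.37 in IP (SE 0.0758, adjusted p = 0.0119) and 0.418 in input (SE 0.0758, adjusted p = 0.0102). The IP call ended without IME4-KO IP replicate 1 (0.063) and with the 4 IP libraries alone (0.0507), and the input call without IME4-KO input replicate 1 (0.0547) or 2 (0.0651). The site just before it, ATG9 +2986, had 0.155 and 0.19 in IME4-KO input, against 0.535 and 0.861 in WT input, a fall of 0.525 (adjusted p = 0.013) that ended without IME4-KO input replicate 1 (0.075) or 2 (0.0654) and with the 4 input libraries alone (0.0644). In IP it had 0.214 and 0.27, against 0.489 and 0.43 (adjusted p = 0.146).

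ATG2 showed the same alternation near its 3' end, in the only 2 sites that could be tested. ATG2 +4728 (chromosome 14, position 213970, plus strand) had 0.814 and 0.576 in IME4-KO IP, against 0.158 and 0.0984 in WT IP, and 0.668 and 0.839 in IME4-KO input, against 0.319 and 0.216 in WT input. It was cut more in every IME4-KO library than in any WT library. The change was 0.566 in IP (SE 0.0958, adjusted p = 0.00601) and 0.486 in input (adjusted p = 0.0136). The input call ended without IME4-KO input replicate 2 or WT input replicate 2. Both calls ended when replicate number within genotype was fitted as a block (adjusted p = 0.0575 in IP and 0.0972 in input). ATG2 +4848, the next listed site, had 0.357 and 0.243 in IME4-KO IP, against 0.747 and 0.738 in WT IP (change -0.442, SE 0.0867, adjusted p = 0.0102, and 0.0564 without IME4-KO IP replicate 2). ATG27, which encodes a membrane protein of Atg9 trafficking, had 9 tested sites, of which 2 were called in IP, both lower. ATG27 +192, its first listed site, was hardly cut without Ime4, at 0.0415 and 0.016 in IME4-KO IP, against 0.322 and 0.342 in WT IP (change -0.303, SE 0.0227, adjusted p = 0.000367). ATG27 +591 had 0.578 and 0.726 in IME4-KO IP, against 0.969 and 1.0 in WT IP, a fall of 0.332. ATG41, another gene of Atg9 movement, had 1 tested site, its last, which fell by 0.29 in input (adjusted p = 0.00567) and did not pass in IP (0.192).

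**Figure D3:**
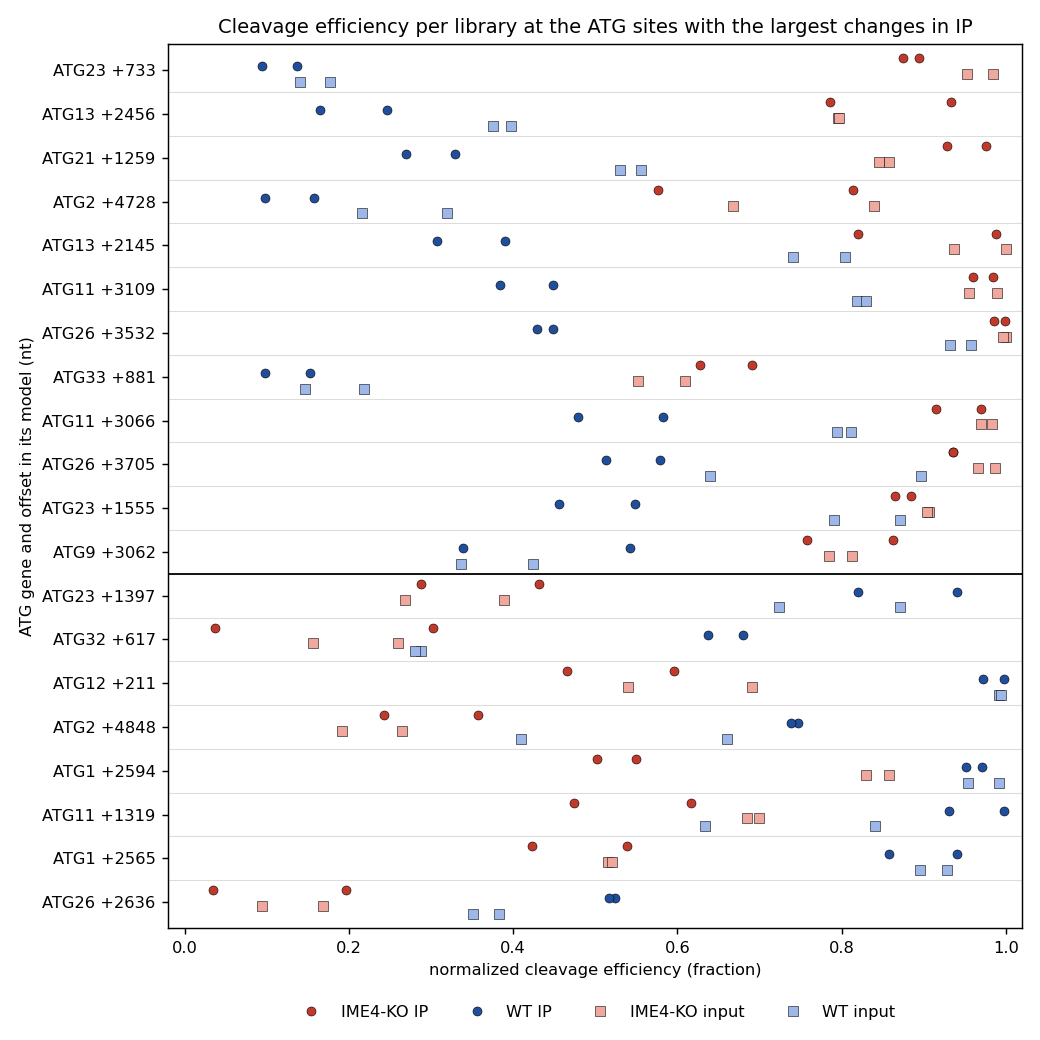
Cleavage efficiency (x axis, fraction) in each of the 8 libraries at the 12 ATG sites with the largest positive change in IP (above the black line) and the 8 with the largest negative change (below it), at most 2 per gene and direction. Circles are IP and squares input, red IME4-KO and blue WT, 1 point per library; IME4-KO IP and WT IP do not overlap at any of the 20 sites, which were chosen for that.

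The Atg1 kinase complex starts autophagosome formation when nutrients are scarce. Of its 36 tested sites in 5 genes, 9 were higher and 7 lower in IME4-KO IP and 20 did not pass, and input gave the same 3 numbers. ATG13, which encodes the regulatory subunit that TORC1 phosphorylates, had 6 tested sites, with 3 higher and 1 lower in IP. The largest change was at ATG13 +2456 (chromosome 16, position 917498, plus strand), with 0.933 and 0.786 in IME4-KO IP, against 0.246 and 0.165 in WT IP. Input stood between, with 0.796 and 0.797 in IME4-KO and 0.397 and 0.376 in WT. The change of 0.654 in IP (SE 0.054, adjusted p = 0.000494) and that of 0.41 in input (adjusted p = 0.00347) held under every alternative tried.

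At a further pair of ATG13 sites WT IP was the lowest group. ATG13 +2145 had 0.82 and 0.988 in IME4-KO IP, against 0.39 and 0.307 in WT IP (change 0.556, SE 0.0649, adjusted p = 0.00158), while the inputs had 0.937 and 1.0 in IME4-KO, against 0.804 and 0.741 in WT (adjusted p = 0.0687). ATG13 +2258 had 1.0 and 0.99 in IME4-KO IP, against 0.599 and 0.627 in WT IP (change 0.382, SE 0.0261, adjusted p = 0.000273). Its inputs had 0.978 and 1.0 in IME4-KO, against 0.887 and 0.927 in WT (adjusted p = 0.0612). The tested site before them went the other way: ATG13 +2057 had 0.259 and 0.214 in IME4-KO input, against 0.558 and 0.721 in WT input, a fall of 0.403 (SE 0.0606, adjusted p = 0.00542). In IP the fall there was 0.208 (adjusted p = 0.0391), and it ended without any 1 IP library (0.0649 to 0.161) or any 1 IME4-KO input library (0.0711 each).

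ATG11 encodes the scaffold that joins the Atg1 kinase to cargo receptors in selective autophagy. Of its 14 tested sites 4 were higher and 1 lower in IP. ATG11 +3066 and +3109 lie 43 nt apart on chromosome 16 (positions 674893 and 674850, minus strand) and moved together. At +3109 efficiency was 0.96 and 0.984 in IME4-KO IP, against 0.384 and 0.448 in WT IP, and at +3066 it was 0.97 and 0.915, against 0.479 and 0.582. WT IP was the lowest group at both, and the inputs stood apart by less, with 0.955 to 0.989 in IME4-KO and 0.794 to 0.83 in WT. The IP changes were 0.556 (SE 0.0306, adjusted p = 0.000151) at +3109 and 0.412 (SE 0.0407, adjusted p = 0.000881) at +3066, and the input changes of 0.147 (adjusted p = 0.0162) at +3109 and 0.173 (adjusted p = 0.0241) at +3066 also passed. In input, +3066 was no longer called without any 1 input library (0.0636 to 0.117), nor +3109 without IME4-KO input replicate 1 (0.0587) or 2 (0.0991) or WT input replicate 1 (0.0578). The single lower site, ATG11 +1319, had 0.617 and 0.474 in IME4-KO IP, against 0.997 and 0.93 in WT IP (change -0.418, adjusted p = 0.00925), with overlapping inputs of 0.685 and 0.699 in IME4-KO and 0.84 and 0.633 in WT. In input, ATG11 +2544 fell by 0.411, at 0.148 and 0.161 in IME4-KO, against 0.456 and 0.676 in WT (adjusted p = 0.00809). That call ended without IME4-KO input replicate 1 (0.0533) or 2 (0.0503).

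ATG1, which encodes the kinase itself, had 10 tested sites. In IP 4 were called, all lower, and in input 3 were higher and 4 lower. The 4 lower sites lay within 236 nt near the 3' end, at +2565, +2594, +2762 and +2801. The IP calls at +2762 and +2801 ended with replicate number within genotype as a block (adjusted p = 0.06 and 0.0575). ATG1 +2594 (chromosome 7, position 167950, plus strand) had 0.502 and 0.55 in IME4-KO IP, against 0.971 and 0.951 in WT IP, a change of -0.435 (SE 0.0292, adjusted p = 0.00026). In input the gap was small, with 0.83 and 0.858 in IME4-KO and 0.992 and 0.954 in WT (change -0.129, adjusted p = 0.0213). That input call ended without IME4-KO input replicate 1 (0.119) or 2 (0.0745), without WT input replicate 1 (0.0783) and in the fit of the 4 input libraries on their own (0.0528). ATG1 +2565, 29 nt upstream, was as low in both kinds of RNA, at 0.538 and 0.423 in IME4-KO IP, against 0.94 and 0.857 in WT IP, and at 0.516 and 0.52 in IME4-KO input, against 0.928 and 0.895 in WT input. Its changes were -0.418 in IP (adjusted p = 0.00149) and -0.394 in input (0.00267). ATG1 +2801 had 0.0868 and 0.253 in IME4-KO IP, against 0.567 and 0.527 in WT IP, and 0.339 and 0.278 in IME4-KO input, against 0.827 and 0.953 in WT input. The fall of 0.582 in input (SE 0.0684, adjusted p = 0.00241) was the deepest of any ATG site there.

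Both ends of the ATG1 transcript held sites cut more in IME4-KO input. ATG1 +2875, the last listed site, had 0.811 and 0.883 in IME4-KO input, against 0.322 and 0.389 in WT input (change 0.492, SE 0.0575, adjusted p = 0.00237). ATG1 +430, near the start, had 0.974 and 0.956, against 0.527 and 0.452 (change 0.475, SE 0.0485, adjusted p = 0.00153). In IP +2875 had 0.932 and 0.854 in IME4-KO, against 0.653 and 0.784 in WT, and +430 had 0.971 and 0.948, against 0.872 and 0.747. WT was thus nearer to IME4-KO than in input, and neither change passed (0.175, adjusted p = 0.0563, and 0.15, adjusted p = 0.0542). The scaffold gene ATG17 had 1 higher and 1 lower site among 5 in IP. Both calls, at +1332 (0.244) and +1219 (-0.326), ended without IME4-KO IP replicate 1 (0.138 at +1332 and 0.0683 at +1219), IME4-KO IP replicate 2 (0.0881 and 0.138) or WT IP replicate 2 (0.148 and 0.0761). The call at +1219 ended without WT IP replicate 1 too (0.13), and that at +1332 without either IME4-KO input library (0.0677 each).

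ATG29 +776 was its gene's only tested site and the one with opposite calls. It had 0.548 and 0.58 in IME4-KO IP, against 0.321 and 0.332 in WT IP (change 0.238, adjusted p = 0.0247), but 0.473 and 0.39 in IME4-KO input, against 0.576 and 0.745 in WT input (change -0.229, adjusted p = 0.0347). The IP call ended without any 1 IP library (0.0742 to 0.102). The input call ended without any 1 library except WT input replicate 1 (0.0601 to 0.172). Of the subunits of phosphatidylinositol 3-kinase complex I, ATG14 and ATG38, 5 sites were tested. In IP, where 41.3% of all tested sites passed, 0 of these passed limma's adjusted threshold (1 at an unadjusted p under 0.05). ATG14 +293 had the largest IP change of the 5, with 1.0 in both IME4-KO IP libraries, against 0.918 and 0.733 in WT IP (change 0.175, adjusted p = 0.0998). It passed without WT IP replicate 1 and on the logit scale (adjusted p = 0.018). The logit stretches differences near the ceiling, where both IME4-KO IP values lie. ATG38 +278 had 0.654 and 0.694 in IME4-KO input, against 0.325 and 0.236 in WT input, and was the 1 call in input (change 0.394, adjusted p = 0.00251).

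**Figure D4:**
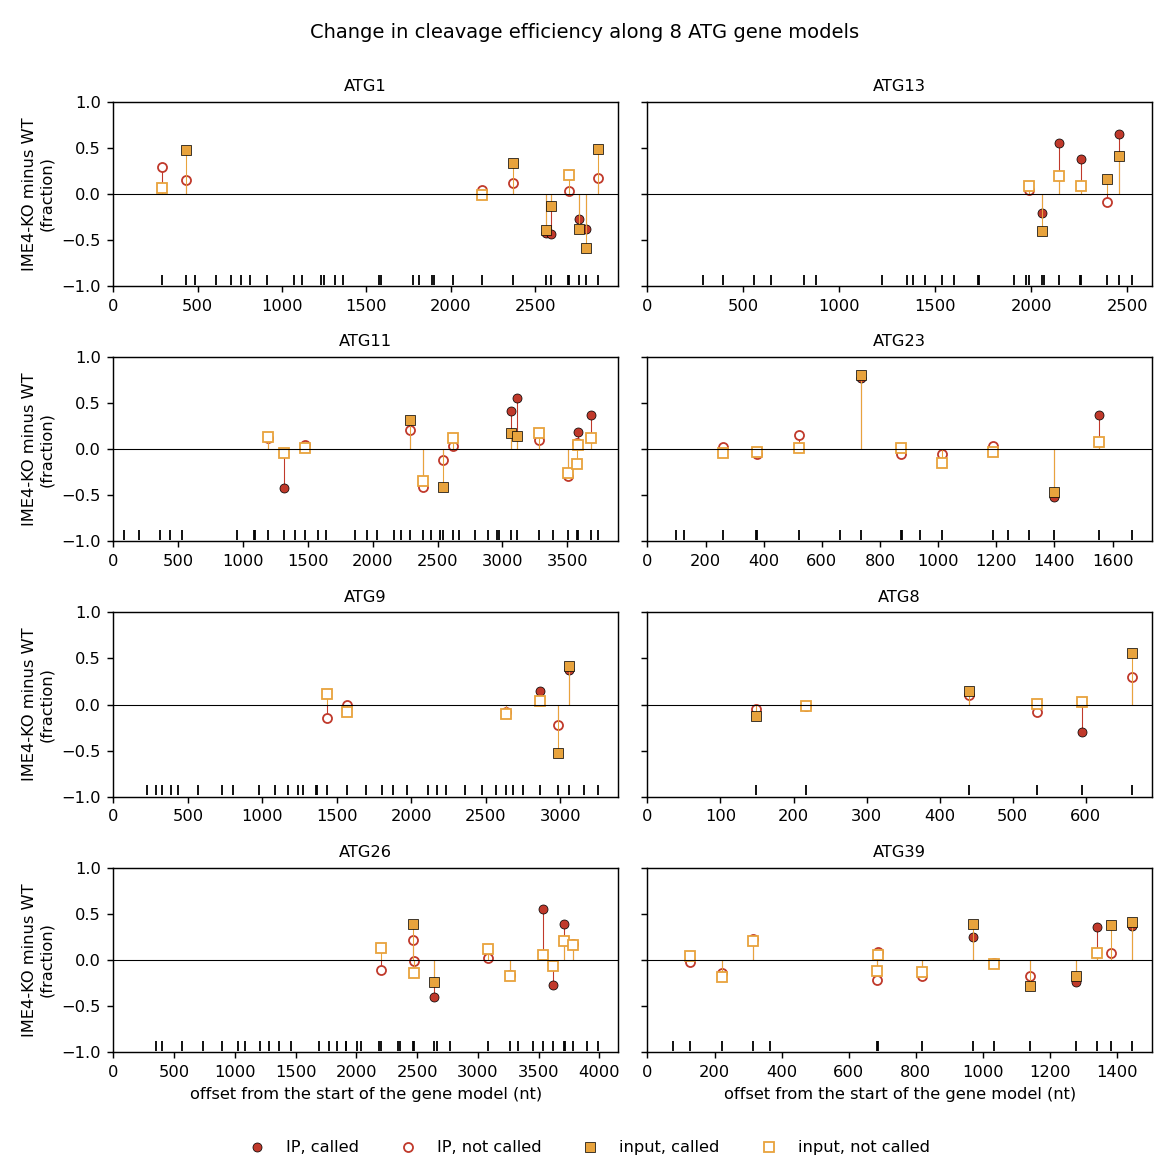
Change in cleavage efficiency (IME4-KO minus WT, fraction) at each tested site of 8 ATG genes, against the site's offset from the start of its gene model in nt; red circles are IP, orange squares input, filled symbols passed the threshold, and ticks at the bottom mark every listed site. ATG1 has 4 called falls in IP between +2565 and +2801, and ATG13 has 3 called rises in IP between +2145 and +2456.

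The Atg8 conjugation system attaches Atg8 to phosphatidylethanolamine through the activating enzyme Atg7 and the conjugating enzyme Atg3, and the protease Atg4 processes Atg8. Its 4 genes had 20 tested sites, with 2 higher, 7 lower and 11 that did not pass in IP, and 3 higher, 3 lower and 14 that did not pass in input. ATG8 itself had all 6 sites tested, of which 1 was called in IP, as lower, and 2 were higher and 1 lower in input. None of these input calls held under every omission of 1 library. The call at +440 (change 0.152) ended without any 1 library except WT input replicate 1. It also ended with quantile normalization (adjusted p = 0.0615) and with the 4 input libraries alone (adjusted p = 0.0909). At ATG8 +664, the last listed site (chromosome 2, position 76235, minus strand), efficiency was 0.891 and 0.859 in IME4-KO input, against 0.413 and 0.215 in WT input. IP had 0.837 and 0.841 in IME4-KO, against 0.668 and 0.414 in WT. The IME4-KO libraries were high throughout, and the WT libraries lower and spread. The change was 0.561 in input (SE 0.098, adjusted p = 0.00897), a call that ended without IME4-KO input replicate 1 (0.058) or 2 (0.0521). In IP it was 0.298 (SE 0.098, adjusted p = 0.0567), and it passed under 9 of the alternatives, among them the logit scale (0.0401) and the fit without WT IP replicate 1 (0.0212).

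ATG8 +595, 69 nt upstream, was the lower site in IP, with 0.358 and 0.449 in IME4-KO, against 0.726 and 0.668 in WT (change -0.294, SE 0.0503, adjusted p = 0.00629). Its inputs overlapped, with 0.44 and 0.484 in IME4-KO and 0.481 and 0.378 in WT (adjusted p = 0.671). The first listed site, ATG8 +148, was cut very little anywhere: 0.00246 and 0.00123 in IME4-KO IP, against 0.0267 and 0.0753 in WT IP, and 0.00301 and 0.00302 in IME4-KO input, against 0.124 and 0.134 in WT input. Both these ATG8 sites were singled out after their values were seen. The input difference at +148 passed (-0.126, adjusted p = 0.0145) and ended without either IME4-KO input library (0.0797 and 0.0811) or WT input replicate 2 (0.0545).

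Low efficiencies of this kind recurred. Of the 25 tested ATG sites whose IME4-KO IP mean was under 0.1, WT IP had the higher mean at 20 (80.0%), against 72.7% of the 2766 such sites in the whole table, and 6 of the 25 were called lower (24.0%, against 30.8%). In input WT was higher at 23 of 27 (85.2%, against 74.4% of 3112), and 5 of the 27 were called lower (18.5%, against 9.83%). A site this low in IME4-KO has little room to be lower in WT, so the direction partly follows from how the sites were picked.

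ATG7 had 8 tested sites, with 2 higher and 3 lower in IP. The largest change was at ATG7 +456, with 0.529 and 0.339 in IME4-KO IP, against 0.683 and 0.961 in WT IP (change -0.388, SE 0.114, adjusted p = 0.0402). That call ended without either IME4-KO IP library (0.0557 and 0.173), WT IP replicate 2 (0.149) or either IME4-KO input library (0.0752 each). ATG7 +609 was steadier, at 0.684 and 0.762 in IME4-KO IP, against 0.997 and 0.942 in WT IP (change -0.247, adjusted p = 0.00353). The last ATG7 site, +2128, had 0.733 and 0.709 in IME4-KO input, against 0.3 and 0.305 in WT input (change 0.418, SE 0.0511, adjusted p = 0.00274), and 0.701 and 0.852 in IME4-KO IP, against 0.568 and 0.528 in WT IP (change 0.229, adjusted p = 0.0163, and 0.0751 without WT IP replicate 2). ATG3 and ATG4 had 3 tested sites each, and their IP calls, 2 in ATG3 and 1 in ATG4, were all lower. Each ended without several single libraries: ATG3 +597 without either WT IP library (0.102 and 0.15) or any 1 input library (0.0605 to 0.0757), and ATG3 +678 and ATG4 +1254 without any 1 IP library except WT IP replicate 1 (0.0547 to 0.0776 and 0.0526 to 0.154) or either IME4-KO input library (0.0515 and 0.0708). The Atg12 conjugation system, which joins Atg12 to Atg5 and helps place Atg8, had 2 tested sites, both in ATG12. ATG12 +211, its first listed site, had 0.596 and 0.466 in IME4-KO IP, against 0.997 and 0.972 in WT IP, and 0.54 and 0.691 in IME4-KO input, against 0.992 and 0.994 in WT input. The WT values lay at or near their ceiling, and the changes were -0.453 in IP (adjusted p = 0.00293) and -0.377 in input (0.00764).

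The group of selective receptors and adaptors had 55 tested sites in 8 genes. In IP 11 were higher, 11 lower and 33 did not pass, and in input 10, 7 and 38. Over all tested sites 17.0% were higher and 24.3% lower in IP, and 15.6% and 16.6% in input. The group was drawn broadly and is not made of cargo receptor genes alone. ATG20, ATG21, ATG26 and ATG33 had 1, 2, 2 and 1 higher and 2, 2, 2 and 2 lower sites in IP. The receptor genes ATG19, ATG32, ATG34 and ATG39 had 0, 0, 2 and 3 higher and 0, 2, 0 and 1 lower. ATG21, which encodes a phosphoinositide-binding protein that acts in Atg8 recruitment, held the largest change of the group. ATG21 +1259 (chromosome 16, position 372808, plus strand) had 0.928 and 0.976 in IME4-KO IP, against 0.329 and 0.269 in WT IP, and 0.845 and 0.857 in IME4-KO input, against 0.555 and 0.53 in WT input. Cutting in WT was lower in input and lower again in IP. The changes were 0.653 (SE 0.0318, adjusted p = 0.000114) and 0.309 (adjusted p = 0.00158), and both calls held under every alternative tried.

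ATG26, the sterol glucosyltransferase gene, had 10 tested sites, with 2 higher and 2 lower in IP. ATG26 +3532 (chromosome 12, position 534432, minus strand) had 0.985 and 0.999 in IME4-KO IP, against 0.429 and 0.449 in WT IP. Inputs were near complete cutting, at 1.0 and 0.996 in IME4-KO, against 0.957 and 0.932 in WT. The IP change was 0.553 (SE 0.023, adjusted p = 8.06e-05) and the input change 0.0534 (adjusted p = 0.135). ATG26 +3705 had 0.936 in both IME4-KO IP libraries, against 0.513 and 0.579 in WT IP (change 0.39, adjusted p = 0.0128). This call ended without IME4-KO IP replicate 1 (0.0572) or 2 (0.0578) or WT IP replicate 1 (0.0633). At ATG26 +2636 the direction was opposite, with 0.196 and 0.0342 in IME4-KO IP, against 0.524 and 0.517 in WT IP (change -0.406, SE 0.0574, adjusted p = 0.00318).

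Among the mitophagy genes, ATG33, which encodes a mitochondrial outer membrane protein, had its last listed site, +881 (chromosome 12, position 839846, plus strand), at 0.691 and 0.628 in IME4-KO IP, against 0.153 and 0.0983 in WT IP. Input had 0.552 and 0.609 in IME4-KO, against 0.147 and 0.218 in WT. The changes were 0.533 (SE 0.042, adjusted p = 0.000422) and 0.397 (adjusted p = 0.00172), and both held under every alternative tried. ATG32, the mitophagy receptor gene, had 5 tested sites, of which 2 were called in IP, both lower. ATG32 +617 had 0.0373 and 0.302 in IME4-KO IP, against 0.68 and 0.637 in WT IP (change -0.489, SE 0.0874, adjusted p = 0.00736), while inputs of 0.156 and 0.26 in IME4-KO lay just below 0.288 and 0.281 in WT (adjusted p = 0.552).

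ATG39 was the receptor gene with the most tested sites, 13, of which 3 were higher and 1 lower in IP. Its last site, +1445, had 0.646 and 0.595 in IME4-KO IP, against 0.289 and 0.225 in WT IP, and 0.451 and 0.524 in IME4-KO input, against 0.0866 and 0.0775 in WT input. The changes were 0.363 (SE 0.0384, adjusted p = 0.00113) and 0.406 (adjusted p = 0.0012). This position and the 3 listed before it are also listed under the same-strand model YLR311C, so the transcript they report on is uncertain. ATG34, the receptor gene for alpha-mannosidase, had 10 tested sites, of which 2 were called in IP and 2 in input, all higher. ATG34 +1106 had 0.783 and 0.712 in IME4-KO IP, against 0.368 and 0.387 in WT IP, and 0.719 and 0.714 in IME4-KO input, against 0.334 and 0.286 in WT input. The genotypes differed by 0.37 in IP (adjusted p = 0.00063) and by 0.407 in input (adjusted p = 0.000767). Its tandem paralog ATG19, the receptor gene of the cytoplasm-to-vacuole pathway, had 4 tested sites, with 0 called by limma in IP (2 at an unadjusted p under 0.05) and 1 higher in input, at +645, which ended without either IME4-KO input library (0.127 and 0.0511) or WT input replicate 1 (0.0615).

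ATG42, a vacuolar carboxypeptidase gene, was the only tested gene of the breakdown group and had 10 tested sites. In IP, where 41.3% of all tested sites passed, 0 of these passed limma's adjusted threshold (2 at an unadjusted p under 0.05). ATG42 +1034 had the largest IP change of them, with 0.869 and 0.86 in IME4-KO, against 0.832 and 0.704 in WT (change 0.0969, adjusted p = 0.411). In input ATG42 +1726 had 0.78 and 0.815 in IME4-KO, against 0.51 and 0.46 in WT (change 0.313, SE 0.0281, adjusted p = 0.00102). ATG45 had 4 tested sites, of which +607 fell in IP, with 0.477 and 0.387 in IME4-KO, against 0.642 and 0.612 in WT (change -0.194, adjusted p = 0.0178). That call ended without IME4-KO IP replicate 2 (0.0711) or either WT IP library (0.0764 and 0.053). The position is also listed under the model YIL025C.

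IP was then set against input within each genotype. In WT, 32 ATG sites differed between IP and input (20.1%, against 20.8% of all tested sites), with 17 higher in IP (10.7%, against 12.4%) and 15 lower (9.43%, against 8.42%). At 100 sites the values did not overlap (62.9%, against 63.4%). The balance depended on scaling: it was 11 higher and 18 lower after median centring and 13 and 18 after quantile normalization. The number higher fell to 8 without WT IP replicate 1 and to 9 without WT input replicate 2. ATG26 +3532 fell furthest, to 0.429 and 0.449 in WT IP, against 0.957 and 0.932 in WT input (change -0.505, adjusted p = 0.000508). ATG11 +3584 followed, with 0.43 and 0.281 in WT IP, against 0.875 and 0.84 in WT input (change -0.502, adjusted p = 0.00321). The falls at ATG13 +2145 (-0.424, adjusted p = 0.00948) and ATG34 +1235 (-0.422, adjusted p = 0.00694) were next. ATG33 +464 rose most, with 0.859 and 0.854 in WT IP, against 0.23 and 0.243 in WT input (change 0.62, adjusted p = 0.00569). ATG38 +278 rose by 0.414, ATG17 +1428 by 0.386 and ATG32 +617 by 0.374; the last of these ended without any 1 WT library (0.0961 to 0.127) or any 1 IME4-KO input library (0.0638 each).

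Without Ime4, IP and input differed at 4 ATG sites (2.52%, against 1.68% of all tested sites), 2 of them higher in IP (1.26%, against 1.09%) and 2 lower (1.26%, against 0.588%). At 79 sites the values did not overlap (49.7%, against 50.9%). ATG32 +726 was higher in IME4-KO IP, at 0.72 and 0.656, against 0.428 and 0.39 in IME4-KO input (0.279, adjusted p = 0.0378), and ATG32 +1848 was higher by 0.194 (adjusted p = 0.0421). ATG11 +3584 fell to 0.52 and 0.572 in IME4-KO IP, against 0.897 and 0.912 in IME4-KO input (-0.359, adjusted p = 0.0452), and ATG1 +2594 fell by 0.318 (adjusted p = 0.0243). The calls at ATG32 +726, ATG32 +1848 and ATG1 +2594 ended without any 1 of the 8 libraries (0.0548 to 0.228, 0.0709 to 0.237 and 0.0508 to 0.203), and that at ATG11 +3584 without any 1 except WT IP replicate 1 or 2 (0.0778 to 0.251). At ATG11 +3584 the IP values lay below the input values in both genotypes.

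The interaction tests whether the genotype change differs between IP and input. It passed at 13 ATG sites (8.18%, against 7.75% of all tested sites), 8 of them positive (5.03%, against 4.31%) and 5 negative (3.14%, against 3.43%). The 4 largest positive ones were at ATG26 +3532 (0.5, SE 0.0326, adjusted p = 0.0043), ATG29 +776 (0.466, adjusted p = 0.0343), ATG11 +3109 (0.409, adjusted p = 0.0107) and ATG33 +771 (0.367, adjusted p = 0.0377). At the ATG26 and ATG11 sites WT IP was the lowest group, whereas at ATG33 +771 WT input was the highest group, with 0.824 and 0.784, against 0.505 and 0.451 in IME4-KO input. The negative ones were led by ATG38 +278 (-0.355, adjusted p = 0.0362), ATG1 +430 (-0.326, adjusted p = 0.0479) and ATG1 +2594 (-0.306, adjusted p = 0.0172), followed by ATG42 +1726 (-0.229, adjusted p = 0.0308). None of the 13 calls held under each of the 8 omissions of a library: without IME4-KO input replicate 1 there were 0 positive and 0 negative calls, and without IME4-KO input replicate 2 there were 1 and 0. The whole table kept 29 and 50 interaction calls under these omissions, of 1345, so the loss was not limited to ATG sites. Without IME4-KO IP replicate 1 or 2 there were 5 and 4 positive calls, without WT IP replicate 1 there were 4 positive and 2 negative, and without WT input replicate 2 there was 1 negative call.

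Of the 37 ATG genes, 10 had no site measured in all 8 libraries. To describe them, sites measured in the 4 input libraries were fitted with those libraries alone, a step chosen after the data were seen. Over 42006 sites 25.0% were called, and of 362 ATG sites 98 (27.1%) were called, 38 higher in IME4-KO (10.5%, against 11.0%) and 60 lower (16.6%, against 14.0%). ATG18, which encodes a phosphoinositide-binding partner of Atg2, had 10 such sites, with 1 higher and 3 lower. At ATG18 +1151 efficiency was 0.368 and 0.467 in IME4-KO input, against 0.992 and 0.91 in WT input (change -0.533, adjusted p = 0.0153), and at +477 it was 0.493 and 0.48, against 0.894 and 0.924 (change -0.422, adjusted p = 0.0111). The lower sites named in this paragraph were chosen after their values were seen. Values of the 1 higher site each of ATG18 and ATG22 are not given here. ATG31, ATG5, ATG36 and ATG22 had 2, 6, 3 and 9 sites in this fit, with 1 lower call each. ATG31, a subunit gene of the Atg1 complex, had 0.438 and 0.406, against 0.91 and 0.771, at +632 (change -0.419, adjusted p = 0.0257). ATG5 +798 had 0.533 and 0.619, against 0.835 and 0.962 (-0.322, adjusted p = 0.0461), and ATG36 +502 had 0.672 and 0.606, against 0.992 and 0.906 (-0.31, adjusted p = 0.0291). ATG22, which encodes a vacuolar amino acid exporter, had 0.594 and 0.576, against 0.86 and 0.869, at +1143 (-0.28, adjusted p = 0.0115) and 1 higher site. ATG10, ATG15, ATG40 and ATG44 had 2, 4, 5 and 1 sites in this fit and 0 calls (with 1, 0, 3 and 1 at an unadjusted p under 0.05), and ATG16 had none that all 4 inputs measured. These fits were not repeated with a library left out.

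Position within the gene model was not used to choose the sites. Each model was split into 5 equal parts from its start to its last listed site. Of the 63 tested ATG sites in the last part, 20 were higher in IME4-KO IP (31.7%, against 20.9% of 6637 such sites in the table), so that this part held 74.1% of the higher ATG calls (47.0% in the table) and 39.6% of the tested ATG sites (38.2%). All higher IP calls of ATG11 (4), ATG13 (3) and ATG9 (2) lay in this part, and sites of 1 transcript are not independent. Several higher calls there, such as those at ATG9 +2863, ATG9 +3062 and ATG26 +3705, ended when 1 library was left out. Lower calls were spread more evenly, with 13 of 63 (20.6%, against 22.9%) in the last part. In input the last part had 16 higher (25.4%, against 18.6%) and 13 lower ATG calls (20.6%, against 15.7%). The first part held only 9 tested ATG sites, with 0 higher calls in IP (15.2% of such sites in the table) and 2 lower calls (22.2%, against 23.1%). For 9 genes the last listed site was itself tested. In input all 9 passed, 7 higher in IME4-KO and 2 lower (ATG32 +1848 and ATG41 +524), where 26.5% of the last sites in the table were higher and 10.8% lower. In IP 3 of the 9 were higher and 0 lower, where 27.2% of the last sites in the table were higher and 15.5% lower. The input calls at ATG17 +1530 and ATG8 +664 ended without either IME4-KO input library. The parts run to the last listed site and not to a known transcript end, and no test was made of these shares.

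**Figure D5:**
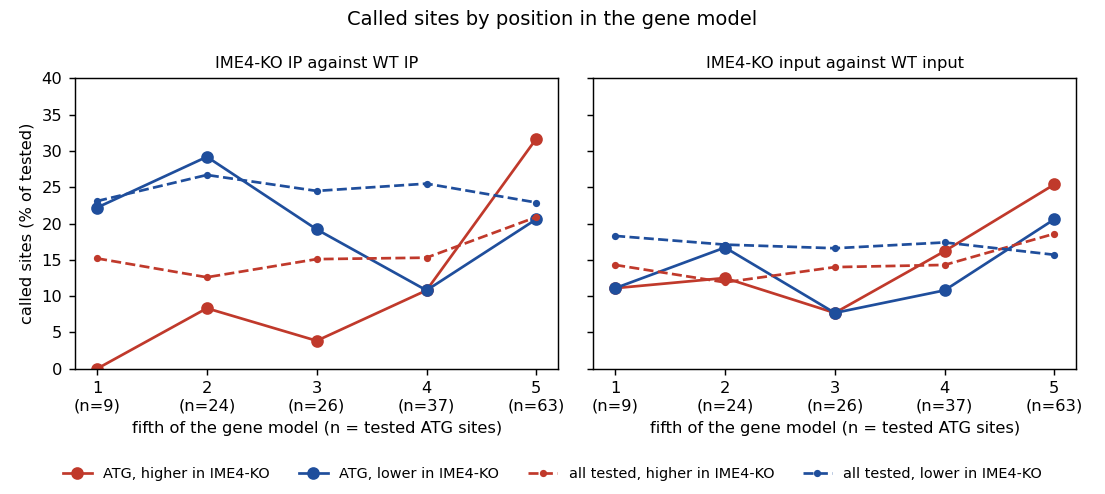
Share of tested sites called higher (red) or lower (blue) in IME4-KO, in percent, by equal parts of the gene model from its start (1) to its last listed site (5), in IP (left) and input (right); solid lines are ATG sites, with their number under the axis, and dashed lines all tested sites. In IP the share of higher ATG sites is 31.7% in the last part and at most 10.8% in the others; the first part rests on 9 sites.

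Neighbouring sites often disagreed. Among 96 pairs of consecutive listed ATG sites that were both tested (median spacing 95 nt), both sites were called in 14 pairs in IP, in the same direction in 6 and in opposite directions in 8 (57.1%, against 52.1% of such pairs in the table). In input the numbers were 12, 6 and 6 (50.0%, against 52.2%). A called pair of neighbours in ATG genes thus went in opposite directions about as often as elsewhere. Sites of 1 transcript share reads, so neighbouring values are not independent measurements.

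The same comparison was made for 27 other genes of the pathway (vesicle fusion, TOR signalling, vacuolar proteases and regulators). Of these 20 genes had 105 tested sites, with 19 higher, 30 lower and 56 that did not pass in IP (46.7% called, against 41.3%), and 16 higher, 21 lower and 68 that did not pass in input (35.2% called, against 32.2%). YKT6, a SNARE gene of autophagosome fusion, had 0.855 and 0.929 in IME4-KO IP, against 0.0639 and 0.122 in WT IP, at +526 (change 0.799, SE 0.0423, adjusted p = 0.000139). PEP4, the gene of vacuolar proteinase A, had 0.917 and 0.947, against 0.188 and 0.19, at +1434 (change 0.743, adjusted p = 5.22e-05), and a smaller input change that also passed, with 0.948 and 0.944 in IME4-KO, against 0.859 and 0.832 in WT (change 0.101, adjusted p = 0.0245). VPS30, a subunit gene of the phosphatidylinositol 3-kinase complexes, had 0.869 and 0.845, against 0.381 and 0.187, at +1640 (change 0.573, adjusted p = 0.00201). SNX4, the sorting nexin gene that acts with ATG20, went the other way, with 0.238 and 0.333 in IME4-KO IP, against 0.997 and 0.95 in WT IP, at +1278 (change -0.688, adjusted p = 0.000262). By limma, the input changes also passed at YKT6 +526 (0.576, adjusted p = 0.000595), VPS30 +1640 (0.474, adjusted p = 0.00552) and SNX4 +1278 (-0.281, adjusted p = 0.00733).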

How the data were processed

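For each ACA site and library the deposited table gives a normalized cleavage efficiency, a fraction; the sources used here do not give its formula, the authors' normalization and depth filter, or the build. Per the submitters' processing notes, STAR 2.5.3a and bedtools 2.26.0 were among the tools. Coordinates are the table's own. Gene names came from the R64 annotation table, which held 5680 of 6104 gene models. Of 77601 lines, 1 was kept per position and strand, ATG lines first. Another model shares the position of 7 ATG sites, and not all of these carry the same values there. Sites measured in all 8 libraries (17360) entered a limma model (version 3.58.1, R 4.3.3) of the untransformed fraction, with 1 mean for each of 4 groups (4 residual degrees of freedom, prior 1.72, prior SD 0.0375). Tests were two-sided. The fit was tested on simulated data.

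Named were the called ATG sites with the largest change whose groups do not overlap, at most 2 per gene and direction: 12 higher and 8 lower in IP, 6 each way in input and 4 each way in the other contrasts. The site of largest IP change in each role group and in ATG1, ATG8 and ATG9 was added, and further sites were named after their values were seen. The members and lists were chosen with earlier results of these data known. Alternatives were the logit (offset 0.01), a minimum of 6 measured libraries, a minimum mean of 0.1, no value from 0.99 up, quantile normalization, median centring, a robust trended prior, fits of only a contrast's libraries, a minimum change of 0.1, replicate number as block, plain or within genotype, and omission of each library. Fitting all sites that a contrast's own libraries measured was added after the data were seen. Sequence around the sites was not used here.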

Additional observations from a re-analysis of the deposited data

Results flagged for a closer look

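At 13 ATG sites the change between genotypes differed between IP and input by limma's interaction term. The interaction, (IME4-KO IP minus WT IP) minus (IME4-KO input minus WT input), was 0.5 at ATG26 +3532, 0.466 at ATG29 +776, 0.409 at ATG11 +3109, 0.367 at ATG33 +771, 0.345 at ATG21 +1259, 0.3 at ATG13 +2258, 0.298 at ATG23 +1555 and 0.257 at ATG20 +2054. It was -0.191 at ATG27 +192, -0.229 at ATG42 +1726, -0.306 at ATG1 +2594, -0.326 at ATG1 +430 and -0.355 at ATG38 +278. ATG20 +2054 had 0.573 and 0.607 in IME4-KO IP, against 0.307 and 0.35 in WT IP, with inputs of 0.594 and 0.612 in IME4-KO and 0.631 and 0.566 in WT. None of these calls held on the logit scale or when replicate numbers nested in genotype were fitted as a block, and each ended without IME4-KO input replicate 1 (adjusted p 0.0506 to 0.167).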

How the results depend on the processing

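No named result reversed. Of 108 results for named sites, 51 stayed on their side of the threshold under all 20 alternatives tried. Of 2114 result and setting pairs 352 lost a call and 11 gained 1. With the nested block 46 results lost a call, among them that at ATG9 +3062 in IP (adjusted p = 0.0827). Counts of ATG sites are given in the order higher, then lower, and a setting not named here left the count within 1.5 times its value. In IP (27 and 31), the lower count was 48 with sites measured in at least 6 libraries, where more sites are tested, and 17 with the nested block. In input (28 and 24) the nested block gave 17 and 12, and the fit of all sites measured in the 4 inputs gave 60 lower, again over more sites. For WT IP against WT input (17 and 15) the logit scale gave 8 and 9, median centring 11 higher, the contrast's libraries only 10 higher, and its sites fitted alone 11 higher. For IME4-KO IP against IME4-KO input (2 and 2), 0 were higher on the logit scale, and the robust prior gave 0 and 1. The contrast's libraries only, its sites fitted alone, the replicate block and the nested block each gave 0 and 0 there. At least 6 libraries gave 1 and 1, no value from 0.99 up 1 lower, and a minimum mean of 0.1, quantile normalization and median centring 1 higher each. For the interaction (8 and 5) the logit scale and the nested block gave 0 and 0, the robust prior 5 and 2, and the replicate block 4 and 3. The cause of these shifts was not tested.

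Leaving out 1 library at a time gave 19 to 28 higher and 22 to 34 lower in IP, 14 to 30 and 10 to 23 in input, and 8 to 20 and 15 to 18 for WT IP against WT input. For IME4-KO IP against IME4-KO input it gave 0 and 0 to 1, and for the interaction 0 to 9 and 0 to 6. Deviations of same-numbered libraries from their group means correlated weakly. The correlation was 0.0788 for WT IP with WT input and 0.0511 for IME4-KO IP with IME4-KO input. In the other pairs of groups it ran from -0.0167 to 0.0109. The pairs within a genotype were thus the highest, and whether the replicate blocks stand for a true pairing is not settled. Depth per site is unknown, and many sites lie at the upper end of the scale: 19 of the 159 ATG sites had a value of 0.99 or above.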
